A study of Rattus norvegicus with 64 samples.

Results

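The potassium channel genes of the rat entorhinal cortex are described here. They were chosen by gene symbol, as every gene whose symbol starts with Kcn followed by 1 of the letters a, b, c, d, f, g, h, j, k, m, n, q, s, t, u or v and then a digit, with Kcnj10 left out. Of the 17260 genes counted, 72 met this rule, and no expression value entered it. Total RNA depleted of ribosomal RNA was sequenced from layer II (LII) and from the deeper layers together (layers III to VI, LDeep), in the medial (MEC) and the lateral entorhinal cortex (LEC) of Long Evans rats. Tissue was dissected from slices at postnatal day 2, 9, 23, or 45 (P2, P9, P23, and P45). For every region and layer there were 5 P2, 4 P9, 3 P23, and 4 P45 samples, 64 in 16 groups. Long Evans is an outbred strain, and the labels name no genetic change and no treatment for any group. The labels number the replicates but do not say that they come from separate animals, so p-values measure the spread between these samples only. In the study's microRNA arrays of the MEC, LII and LDeep samples that shared a number came from 1 animal. The same is not stated for these libraries, and if it holds, samples of different layers or regions are not independent animals.

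Potassium channels let potassium ions leave or enter the cell and so set the resting potential, the shape and repetition of action potentials, and the response to synaptic input. Voltage-gated channels are built from 4 alpha subunits of the Kv1 (Kcna), Kv2 (Kcnb), Kv3 (Kcnc), Kv4 (Kcnd), Kv7 (Kcnq), or Eag/Erg/Elk (Kcnh) subfamilies. Subunits of the modifier genes (Kcnf, Kcng, Kcns, and Kcnv) form no working channel alone but join with Kv2 subunits. Inward rectifiers (Kir, Kcnj), channels with a pair of pore domains in each subunit (K2P, Kcnk), calcium-activated SK and IK channels (Kcnn), and sodium-activated Slo2 channels (Kcnt) make up the rest. The 72 genes comprised 14 Kir, 13 K2P, 10 modifier, 8 Kv1, 8 Eag/Erg/Elk, 4 Kv3, 4 Kv7, 4 SK/IK, 3 Kv4, 2 Kv2, and 2 Slo2 genes.

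The sum of counts over genes ranged from 3894334 to 11439143 per sample (median 7569157.5), and the 72 genes took 0.156% to 0.453% of them. Layer markers went with the layer labels over all ages and both regions together. Of these, 3 of 3 layer II markers were higher in LII and 6 of 6 deep layer markers were higher in LDeep. Single groups and the labels of region and age were not tested this way. A total of 8 libraries stood apart from their groups. The library labelled MEC LII P2 replicate 1 held 1 CPM (counts scaled to library size) of Slc17a7 and Neurod6 together, genes of excitatory cortical neurons, against 433.9 to 561.6 CPM in the rest of its group, which goes against its label. Genes of midbrain dopamine neurons summed to 909.5 CPM in MEC LII P2 replicate 3, and those of cerebellar neurons to 744.3, 558.4, and 593.7 CPM in replicate 2 of MEC LII P23, LEC LII P45, and LEC LDeep P45. Markers of meningeal fibroblasts summed to 1067 CPM in MEC LDeep P2 replicate 1, where the rest of that group held 48.2 to 87.8 CPM, and ribosomal RNA was high in MEC LDeep P2 replicate 4 and LEC LDeep P45 replicate 4 (5125 and 4620 CPM). Counts of genes were therefore also taken without these 8 libraries.

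The DNA in front of the gene start is shown for the most changed genes between ages that have 1 entry in the RefSeq table of promoters, Kcng4 and Kcnj4, which rose, and Kcnh8 and Kcnh4, which fell. Each run is the 250 bases before the start, 5′ to 3′ on the strand of the gene, with GC boxes (GGGCGG or, on the other strand, CCGCCC) and TATA boxes (TATAAA or TTTATA) in capitals. The table follows build GRCr8 and the counts follow Rn6, so its coordinates are not those given for genes elsewhere in the text.
Kcng4 (chr19:64597889-64598138, minus strand): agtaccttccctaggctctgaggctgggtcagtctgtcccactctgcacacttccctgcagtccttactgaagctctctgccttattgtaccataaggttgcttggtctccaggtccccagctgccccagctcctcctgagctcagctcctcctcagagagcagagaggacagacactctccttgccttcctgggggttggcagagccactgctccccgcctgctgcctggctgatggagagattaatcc
Kcnj4 (chr7:112954548-112954797, minus strand): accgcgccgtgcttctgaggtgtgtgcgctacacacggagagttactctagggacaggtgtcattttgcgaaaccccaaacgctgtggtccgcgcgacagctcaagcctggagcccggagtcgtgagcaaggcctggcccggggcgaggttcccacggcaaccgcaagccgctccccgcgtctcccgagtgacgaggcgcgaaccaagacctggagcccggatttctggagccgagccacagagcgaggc
Kcnh8 (chr9:5742433-5742682, plus strand): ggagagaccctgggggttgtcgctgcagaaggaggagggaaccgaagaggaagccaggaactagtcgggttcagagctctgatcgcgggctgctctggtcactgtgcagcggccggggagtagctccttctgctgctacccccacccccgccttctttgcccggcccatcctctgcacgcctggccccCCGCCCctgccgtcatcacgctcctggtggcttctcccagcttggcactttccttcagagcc
Kcnh4 (chr10:86188477-86188726, minus strand): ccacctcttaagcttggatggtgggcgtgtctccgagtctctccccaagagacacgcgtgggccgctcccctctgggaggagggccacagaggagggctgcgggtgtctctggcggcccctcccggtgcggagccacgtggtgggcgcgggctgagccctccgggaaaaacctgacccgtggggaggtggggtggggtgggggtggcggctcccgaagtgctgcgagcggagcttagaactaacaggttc
Only the run of Kcnh8 held a GC box, and none of the 4 held a TATA box. Of all 33469 promoters in the table, 30.5% held a GC box and 12.9% a TATA box in these 250 bases. The table has 51 promoters for 46 of the 72 genes, of which 25 (49%) held a GC box and 2 (3.92%) a TATA box. The 51 promoters were also richer in G and C (median 59.6%) than all promoters (51.2%), and the shares were not adjusted for this. GC boxes were present in 18 of 32 promoters of genes higher at P23/P45 and in 4 of 6 of genes lower at P23/P45. A match of letters does not show a site that is used.

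To compare levels between genes, CPM was divided by the exon length in kb (RPKM). Among the genes with high levels at P2 were Kcnh3 (median 35.3 RPKM, range 2.13 to 50.7 over 20 samples) and Kcnd2 (28.5 RPKM, 15.7 to 38.6). Kcnh3 encodes an Elk channel, and its lowest value belonged to the library labelled MEC LII P2 replicate 1. At P45 Kcnf1 had 64.2 RPKM (26.5 to 93.1 over 16 samples) and Kcnj4 56.2 RPKM (38.8 to 88.1), and these ranges overlapped widely. Kcnf1 encodes a modifier subunit and Kcnj4 an inward rectifier.

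Summed over the 72 genes, the P2 samples had 522 ± 74.2 RPKM (SD, n = 20) and the P9 samples 671 ± 89.7 RPKM (SD, n = 16). The sum reached 1030 ± 118 RPKM (SD, n = 12) in the P23 samples and 1090 ± 148 RPKM (SD, n = 16) in the P45 samples. Within this sum the subfamilies changed places. Kv7 genes held 18.3% ± 1.39 (SD, n = 20) at P2 and 10.7% ± 1.12 (SD, n = 16) at P45, whereas Kir genes went from 9.18% ± 1.4 (SD, n = 20) to 18.7% ± 2.06 (SD, n = 16). The share of Kv3 genes was 4.75% ± 0.784 (SD, n = 20) at P2 and 8.21% ± 1.09 (SD, n = 16) at P45, and that of Kv4 genes 8.39% ± 1.61 (SD, n = 20) and 4.57% ± 0.585 (SD, n = 16). The summed level of Kv7 genes was 95.8 ± 18.8 RPKM (SD) at P2 and 117 ± 26.3 RPKM at P45. For Kv4 genes it was 43.4 ± 8.33 and 49.8 ± 8.9 RPKM. Their smaller shares thus came with a larger total, not with a smaller mean sum of their own. These shares and sums were not tested.

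**Figure D1:**
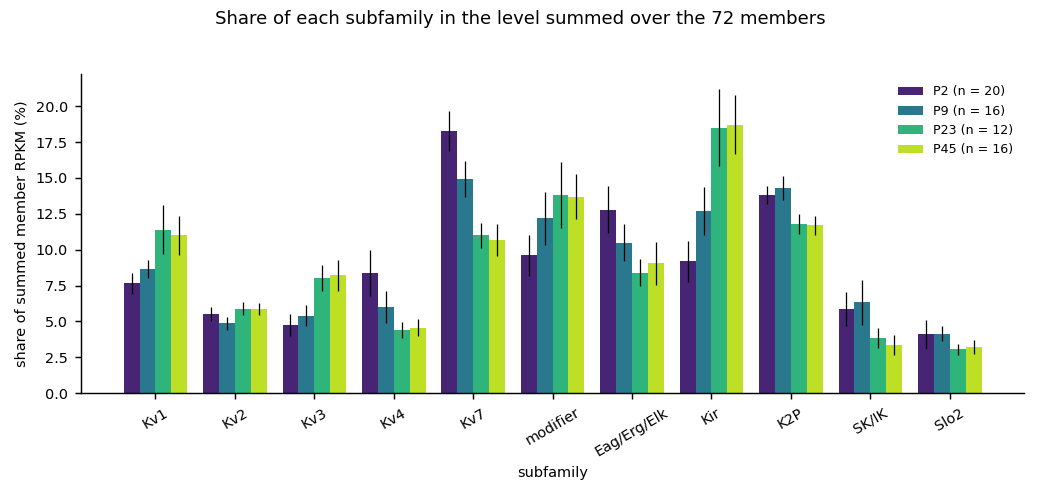
Share of each subfamily (horizontal axis) in the RPKM summed over the 72 genes, in percent (vertical axis). Bars are means and lines the SD over the samples of an age, coloured by age; Kir was the smaller of Kir and Kv7 at P2 (9.18% against 18.3%) and the larger at P45 (18.7% against 10.7%).

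Most potassium channel genes rose between the younger and the older ages. Of the 62 genes that passed the filter on low counts, 40 were higher at P23/P45 than at P2/P9 and 9 were lower (edgeR quasi-likelihood test, Benjamini-Hochberg adjusted p below 0.05). Of all 12521 genes tested, 41.0% were higher and 40.6% lower, and the median log2 fold change (LFC, P23/P45 over P2/P9) was 0.57 over the 62 genes and 0.01 over all genes. Leaving out the 8 libraries gave 41 and 11. In the MEC alone 34 rose and 7 fell, and in the LEC alone 40 rose and 8 fell. Shares of all genes were not taken for these settings.

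By subfamily, all 4 Kv3 genes rose, with LFCs from 1.23 to 1.60. These genes encode channels that close fast and are known from neurons that fire at high rates. Kir genes rose in 9 of 12 cases and fell in 1, with a median LFC of 1.37, and the modifier genes rose in 8 of 9 cases. The exception, Kcng1, was lower at P23/P45 in the MEC alone and, over both regions, without the 8 libraries (LFC -0.39, adjusted p 4.8e-05). Of 6 Kv1 genes 4 rose, and of 10 K2P genes 5 rose and 2 fell. The Eag/Erg/Elk genes were divided, since Kcnh1, Kcnh5, and Kcnh7 rose while Kcnh4, Kcnh6, and Kcnh8 fell. Among the SK genes Kcnn2 rose, and Kcnn1 and Kcnn3 fell. Kv4 channels carry the fast inactivating A-type current, and here Kcnd2 rose, Kcnd1 fell, and Kcnd3 had an LFC of 0.08. Both Slo2 genes rose. Among these rises, the calls of Kcng3, Kcna5, Kcnk2, Kcnk12, Kcnj5, and Kcnt1 were lost in the MEC alone. Those of Kcns1 and Kcng2 were lost in the LEC alone.

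**Figure D2:**
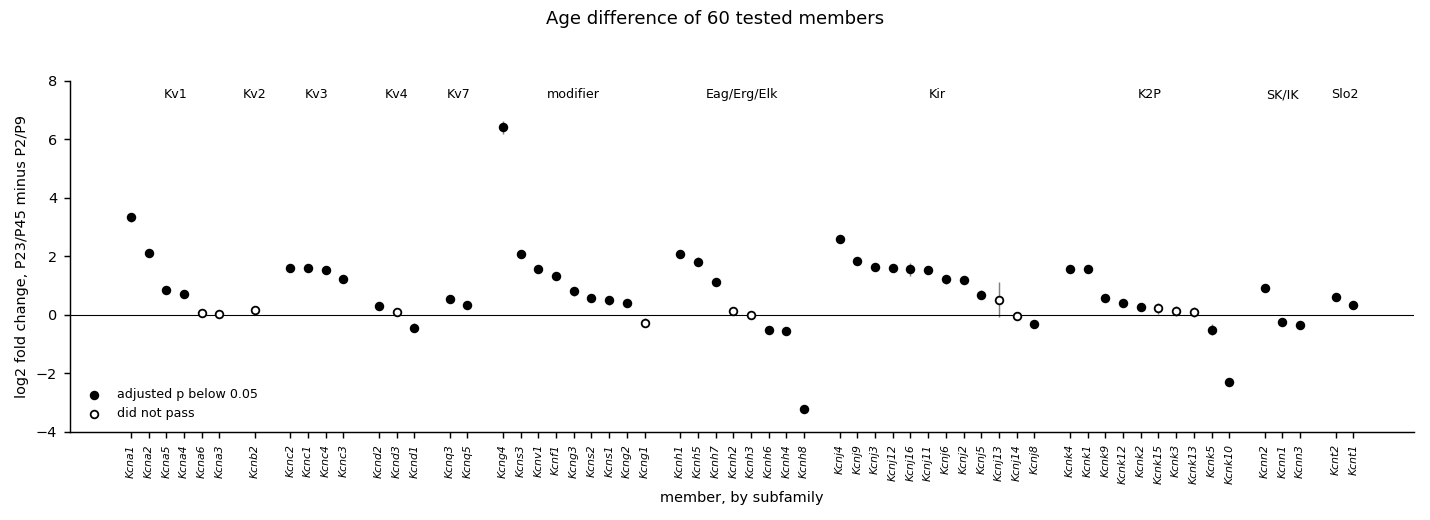
LFC between ages (P23/P45 over P2/P9, vertical axis, log2) of 60 of the 62 tested genes, grouped by subfamily on the horizontal axis. Lines are standard errors, often smaller than the points, and filled points have an adjusted p below 0.05; the LFC runs from -3.22 for Kcnh8 to 6.41 for Kcng4.

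Marker genes of several cell types differed between the same ages. The summed level of 5 oligodendrocyte markers had a median of 59.5 CPM at P2/P9 (range 34.1 to 685) and 3710 CPM at P23/P45 (639 to 15220), and 5 of 5 rose. Sums for 5 neuron markers had medians of 2400 and 4753 CPM (4 rose and 1 fell). Those for 5 astrocyte markers had 1004 and 2799 CPM (4 rose and 1 fell), and those for 5 microglia markers 102.5 and 284 CPM (5 of 5 rose). Of 5 oligodendrocyte precursor markers 1 rose and 2 fell (median sums 367.1 and 353.7 CPM). Of 5 interneuron markers (Pvalb, Syt2, Gad1, Gad2, and Erbb4) 4 rose and 1 fell. Their sums had medians of 358.4 CPM (range 261.2 to 1193) and 554.3 CPM (460.9 to 763.6). Rises were also found for 4 of 5 pericyte and smooth muscle markers (median sums 129.1 and 212 CPM) and 3 of 4 endothelial markers (177.3 and 236.4 CPM). Every one of these markers passed the filter on low counts. Their part in the changes of the potassium channel genes was not tested. In bulk tissue, fewer cells of a type and less RNA per cell cannot be told apart.

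Single genes are given on a log2 CPM scale to which a prior count of 2 was added, so that a sample without a count lies at -1.91. The gene with the largest rise was Kcng4, which encodes a modifier subunit. On build Rn6 it spans 3 exons of chromosome 19, minus strand, positions 52270907 to 52282877. Its log2 CPM was between -1.91 and 2.21 (median -1.44) in the 36 samples at P2/P9 and between 2.96 and 5.33 (median 4.01) in the 28 samples at P23/P45. Every older sample was above every younger one, and at P2 14 of 20 samples had no count, with 6 counts in all. The LFC was 6.41 (SE 0.22, adjusted p 1.8e-32), and the small number of counts at P2 limits its precision. The highest values at P23/P45 were those of the 3 libraries with cerebellar genes, with 40 CPM in MEC LII P23 replicate 2 (25.7 and 26.7 CPM in its group), 31.4 CPM in LEC LII P45 replicate 2 (7.51 to 11.9), and 31.1 CPM in LEC LDeep P45 replicate 2 (8.78 to 11.2). The LFC was 6.14 without the 8 libraries.

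Kcna1 and Kcna2, which encode Kv1 subunits of axons, both rose. Kcna1 lies on chromosome 4 from 159190781 to 159192526 on the minus strand and Kcna2 on chromosome 2 from 209839418 to 209843548 on the plus strand. The log2 CPM of Kcna1 went from -0.19 to 4.51 (median 1.72) at P2/P9 to 4.83 to 6.55 (median 5.82) at P23/P45 (LFC 3.32, SE 0.16, adjusted p 1.4e-26). Among the P2 samples, the library labelled MEC LII P2 replicate 1 had 4.18, whereas the other 4 of its group had 0.60 to 0.98. For Kcna2 the younger samples lay between 3.12 and 5.68 (median 4.20) and the older between 5.87 and 7.26 (median 6.52), with an LFC of 2.10 (SE 0.08, adjusted p 1.6e-29). Younger and older samples did not overlap for either gene.

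Kcnj4, a Kir gene on chromosome 7 from 120717378 to 120744602 on the minus strand, was between 1.05 and 6.03 (median 4.52) at P2/P9 and between 6.59 and 7.87 (median 7.20) at P23/P45 (LFC 2.57, SE 0.10, adjusted p 1.7e-29). The ages did not overlap, and the lowest younger value was again that of the library labelled MEC LII P2 replicate 1. For Kcns3, which encodes a modifier subunit, the younger samples had -0.59 to 3.69 (median 2.56) and the older 3.48 to 5.66 (median 4.48), so that the ages overlapped slightly (LFC 2.06, SE 0.10, adjusted p 4.1e-25). Kcnh1, the gene of an Eag channel, had 3.16 to 4.67 (median 3.86) in younger and 4.96 to 6.89 (median 5.94) in older samples, without overlap (LFC 2.06, SE 0.09, adjusted p 2.2e-28). In all, 8 of the 62 genes had every older sample above every younger one (3.60% of all genes), namely the 5 without overlap just described and Kcnj3, Kcnj11, and Kcnk1. The last 3 were named for this count after their values had been seen.

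Of the genes that fell, Kcnh8 and Kcnk10 fell most. Kcnh8, an Elk gene on chromosome 9 from 3127618 to 3697736 on the minus strand, was between 1.75 and 3.69 (median 3.13) at P2/P9 and between -0.90 and 0.71 (median 0.07) at P23/P45 (LFC -3.22, SE 0.10, adjusted p 9.9e-35). Kcnk10, a K2P gene of the mechanically gated kind on chromosome 6 from 122419046 to 122545899 on the minus strand, was between 5.39 and 6.82 (median 5.98) in younger and between 2.87 and 4.62 (median 3.58) in older samples (LFC -2.29, SE 0.08, adjusted p 5.4e-32). They were the 2 genes with every older sample below every younger one, against 3.82% of all genes.

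The other falls were smaller, and the ages overlapped in each. Kcnh4, an Elk gene, had a median of 4.04 (2.82 to 4.97) at P2/P9 and of 3.47 (1.75 to 5.03) at P23/P45 (LFC -0.56, adjusted p 8e-06). Kcnh6, an Erg gene, had medians of 2.84 (2.16 to 3.54) and 2.4 (1.75 to 3.17) (LFC -0.53, adjusted p 5.7e-08). Its LFC was -0.76 (MEC) and -0.31 (LEC) by region. The medians of Kcnk5, a K2P gene, were 0.84 (-0.57 to 1.95) and 0.13 (-1.91 to 2.44), with an LFC of -0.53 (SE 0.19, adjusted p 0.012). In the MEC alone the LFC of Kcnk5 was -0.29 (adjusted p 0.24). With counts summed over samples that share a replicate number it was -0.06 (adjusted p 0.78). Kcnd1 had medians of 2.81 (2.2 to 4.76) and 2.28 (0.82 to 4.23), with an LFC of -0.45 (SE 0.15, adjusted p 0.0049) that came to -0.73 in the MEC (adjusted p 0.0025) and -0.18 in the LEC (adjusted p 0.42). Its highest value of each age belonged to a library with high ribosomal RNA, MEC LDeep P2 replicate 4 and LEC LDeep P45 replicate 4.

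**Figure D3:**
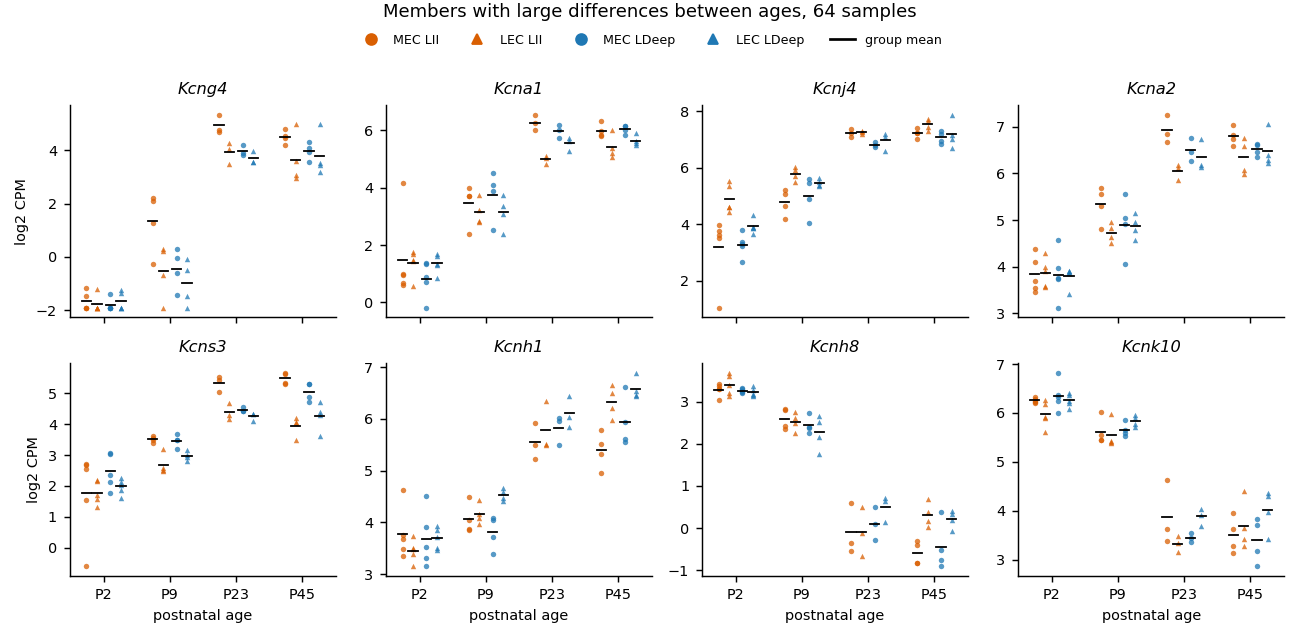
Log2 CPM (vertical axes) of the 6 genes that rose most and the 2 that fell most with age, for 64 samples by postnatal age (horizontal axis). Each point is 1 sample, colour gives the layer and shape the region, and black bars are group means; older samples lie above all younger ones in each rising gene except Kcns3, and below them in Kcnh8 and Kcnk10.

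Further genes that rose came from the G protein-coupled Kir channels, the Kv3 genes, and the K2P genes. For the Girk genes Kcnj9 and Kcnj3 the LFC was 1.84 (adjusted p 3.4e-26) and 1.62 (adjusted p 5.7e-29). Kcnj12, which encodes a strong inward rectifier like Kcnj4, had 1.59 (adjusted p 4.9e-23). Kcnh5 (Eag, LFC 1.80, adjusted p 5e-16), Kcnc2 (1.60, adjusted p 1.8e-31), Kcnc1 (1.58, adjusted p 3.2e-17), Kcnk4 (1.57, adjusted p 1.4e-23), the modifier gene Kcnv1 (1.57, adjusted p 6.8e-21), and Kcnk1 (1.55, adjusted p 6.8e-33) complete the 15 with the largest rise. Kcnn3 (LFC -0.36, adjusted p 6.5e-06), Kcnj8 (-0.31, adjusted p 5.9e-05), and Kcnn1 (-0.25, adjusted p 0.00085) complete the 9 that fell. In the MEC alone Kcnj8 (LFC -0.17, adjusted p 0.11) and Kcnn1 (-0.15, adjusted p 0.19) did not pass. Kcnn1 was also called higher at P9 than at P2, so it did not fall throughout. Kcnj8 encodes the pore subunit of vascular potassium channels that close with ATP.

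Most differences between neighbouring ages lay before P23. From P2 to P9, 34 genes rose and 9 fell (31.6% and 31.8% of all genes), and from P9 to P23, 30 rose and 8 fell (32.5% and 32.1%). From P23 to P45, 1 gene rose and 1 fell (1.99% and 1.86% of all genes). These were Kcnh4 (LFC 0.67, adjusted p 0.01) and Kcnj8 (LFC -0.76, adjusted p 1.3e-06), and both calls were lost with counts summed over samples that share a replicate number. Without the 8 libraries 4 rose and 1 fell in that last step. Neighbouring steps share the samples of the age between them.

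From P2 to P9 the largest rises were those of Kcng4 (LFC 3.71, adjusted p 1.3e-07), Kcna1 (2.07, adjusted p 4.3e-11), Kcnj9 (1.62, adjusted p 4.3e-17), Kcnk4 (1.54, adjusted p 1.9e-16), Kcnj4 (1.4, adjusted p 1.8e-12), and Kcna5 (1.25, adjusted p 1.2e-09). The value for Kcng4 rests on 6 counts at P2 and 138 at P9. These lists leave out Kcnk15, a K2P gene under 1 CPM on average, which was named after its values had been seen and had an LFC of 2.93 at this step (adjusted p 1.3e-12) and of -1.20 from P9 to P23 (adjusted p 0.00017). Falls at this step were found for Kcnh8 (LFC -0.85, adjusted p 2.8e-10), Kcnk3 (-0.77, adjusted p 0.0031), Kcnd3 (-0.69, adjusted p 1e-07), Kcnh4 (-0.68, adjusted p 3.8e-05), Kcnh2 (-0.58, adjusted p 1.6e-07), and Kcnk10 (-0.55, adjusted p 1.9e-06). Kcnk3 encodes an acid-sensitive K2P channel, and Kcnh2 an Erg channel.

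From P9 to P23 Kcng4 (LFC 4.58, adjusted p 1.7e-21), Kcna1 (2.25, adjusted p 1.7e-13), Kcnj4 (1.78, adjusted p 2.4e-15), Kcnh1 (1.71, adjusted p 6e-17), Kcnh5 (1.65, adjusted p 1.1e-08), and Kcnc1 (1.52, adjusted p 4e-10) rose most. Kcnh8 (LFC -2.62, adjusted p 4.3e-22) and Kcnk10 (-2.03, adjusted p 4.5e-21) fell most, followed by Kcnh6 (-0.72, adjusted p 1.2e-06), Kcnh4 (-0.55, adjusted p 0.0035), Kcnn1 (-0.54, adjusted p 5.3e-06), and Kcng1 (-0.49, adjusted p 0.031). The call of Kcng1 was lost with counts summed by replicate number. From the youngest to the oldest age the median log2 CPM was 3.29, 2.46, 0.13, and -0.02 for Kcnh8 and -1.91, -0.17, 4.01, and 4.02 for Kcng4.

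Between layers, fewer genes differed. With the ages weighted equally, 12 of the 62 genes were higher in LII and 21 in LDeep, against 23.5% and 30.5% of all genes. The median LFC (LII over LDeep) was -0.05 for the 62 genes and -0.05 for all genes. With limma voom and quantile normalization the split was 6 against 28, and without the 8 libraries it was 18 against 20. No share of all genes was taken in these settings, so the splits cannot show a lean particular to these genes. All 3 SK genes tested (LFC -0.39 to -0.33) and 2 of 4 Kv3 genes were higher in LDeep, with no gene of these subfamilies higher in LII over both regions. In the MEC alone Kcnc1 was higher in LII (LFC 0.42, adjusted p 0.027), and Kcnn1 had an LFC of -0.01. The Kir genes were divided, with 5 of 12 higher in LII and 3 higher in LDeep. None of the 3 Kv4 genes passed over both regions, with LFCs of -0.01 to 0.08, but Kcnd2 was higher in LII in the MEC alone (LFC 0.29, adjusted p 0.0024) and higher in LDeep in the LEC alone (LFC -0.27, adjusted p 0.005).

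Markers of other cell types also differed between the layers. Of 7 meningeal fibroblast markers 6 were higher in LII and 1 was higher in LDeep. Their summed level was 920.8 CPM (median, range 25.1 to 1540) in LII and 125 CPM (27.2 to 1067) in LDeep. All 5 astrocyte markers (median of the sum 2468 against 1213 CPM), 5 of 5 pericyte and smooth muscle markers (222.5 against 123.3 CPM), and 4 of 4 endothelial markers (264.9 against 170 CPM) were higher in LII. The sum of 5 oligodendrocyte markers was 64.5 CPM in LII and 126 CPM in LDeep, with 3 of 5 higher in LDeep, and 3 of 5 neuron markers were higher in LDeep (3278 against 3855 CPM). All of these markers passed the filter on low counts, and their part in the layer differences that follow was not tested.

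Kcnj13, which encodes a Kir channel known from transporting epithelia, was the gene with the largest difference toward LII. Its 3 exons are on chromosome 9, minus strand, between 94487224 and 94495333. Its log2 CPM in LII was between -1.91 and 4.39 (median 3.15) and in LDeep between -1.91 and 2.36 (median -1.37), with 2 of 32 LII samples and 14 of 32 LDeep samples at a count of 0 (LFC 4.88, SE 0.41, adjusted p 6.8e-15). The LII samples at 0 were replicates 1 and 3 of MEC LII P2, both among the libraries that stood apart. The LDeep library with the most Kcnj13, MEC LDeep P2 replicate 1 (4.85 CPM), was the one with 1067 CPM of meningeal markers. It was followed by MEC LDeep P9 replicate 3 with 3.13 CPM of Kcnj13 and 336.6 CPM of meningeal markers. The LFC was 5.47 without the 8 libraries.

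Kcnk5 lies on chromosome 15 from 4554603 to 4597000 on the plus strand and encodes a K2P channel that responds to pH. It had -0.37 to 2.44 (median 1.32) in LII and -1.91 to 1.4 (median 0.09) in LDeep (LFC 1.69, SE 0.19, adjusted p 9.5e-11). For Kcnj16, which encodes a Kir subunit found with that of Kcnj10 in glia, the ranges were -0.64 to 4.46 (median 2.53) and -1.02 to 3.45 (median 1.41), with an LFC of 1.25 (SE 0.21, adjusted p 1.1e-06). By region, the LFC of Kcnj16 was 1.75 (MEC) and 0.75 (LEC), and with limma voom and quantile normalization it was 0.79. Kcnk13, a K2P gene, had 0.81 to 4.95 (median 2.12) in LII and 0.29 to 2.61 (median 1.68) in LDeep (LFC 0.77, SE 0.16, adjusted p 5.6e-05). The highest LII values of Kcnj16 and Kcnk13 were both in the library labelled MEC LII P2 replicate 1.

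The Eag gene Kcnh5 had a median of 2.5 (1.11 to 5.04) in LII and 2.18 (0.45 to 4.58) in LDeep (LFC 0.51, SE 0.15, adjusted p 0.0043). The Elk gene Kcnh4 had 3.96 (3.08 to 4.92) and 3.52 (1.75 to 5.03) (LFC 0.48, SE 0.11, adjusted p 0.0002). In the LEC alone neither passed the threshold (adjusted p 0.16 and 0.09). With limma voom and quantile normalization Kcnk13 (adjusted p 0.14) and Kcnh5 (adjusted p 0.33) did not pass. The layers overlapped for each of these genes.

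Kcna6, a Kv1 gene, had the largest difference toward LDeep. Its 2 exons are on chromosome 4, minus strand, between 159253934 and 159287193. Its log2 CPM was between 5.42 and 6.89 (median 5.95) in LII and between 6.04 and 7.76 (median 7.17) in LDeep (LFC -1.12, SE 0.07, adjusted p 9.2e-19). The lowest LDeep value was that of MEC LDeep P2 replicate 1, the library with meningeal markers. Kcng1, a modifier gene, had 2.59 to 5.41 (median 4.41) in LII and 4.25 to 7.12 (median 4.89) in LDeep (LFC -0.96, SE 0.14, adjusted p 2.7e-08), and its 2 highest LDeep values were those of the libraries with high ribosomal RNA. For the modifier gene Kcnf1, on chromosome 6 from 42471061 to 42473738 on the minus strand, the values were 4.76 to 7.44 (median 6.08) and 4.72 to 7.96 (median 6.79) (LFC -0.83, SE 0.07, adjusted p 1.3e-14).

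The Kv3 genes Kcnc2 and Kcnc4 were higher in LDeep as well. Kcnc2 had 3.85 to 6.99 (median 5.63) in LII and 5.04 to 7.74 (median 6.22) in LDeep (LFC -0.63, SE 0.06, adjusted p 2e-13). Kcnc4 had 2.29 to 6.31 (median 4.94) and 2.77 to 7.11 (median 5.70), with an LFC of -0.49 (SE 0.11, adjusted p 0.0003). Kcnk3 had -0.11 to 2.91 (median 1.14) in LII and 0.99 to 3.38 (median 1.5) in LDeep (LFC -0.50, SE 0.17, adjusted p 0.012), which was -0.27 in the LEC alone (adjusted p 0.4) and -0.91 with limma voom and quantile normalization. The ranges of both layers span 4 ages, and they overlapped in all 6 genes.

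**Figure D4:**
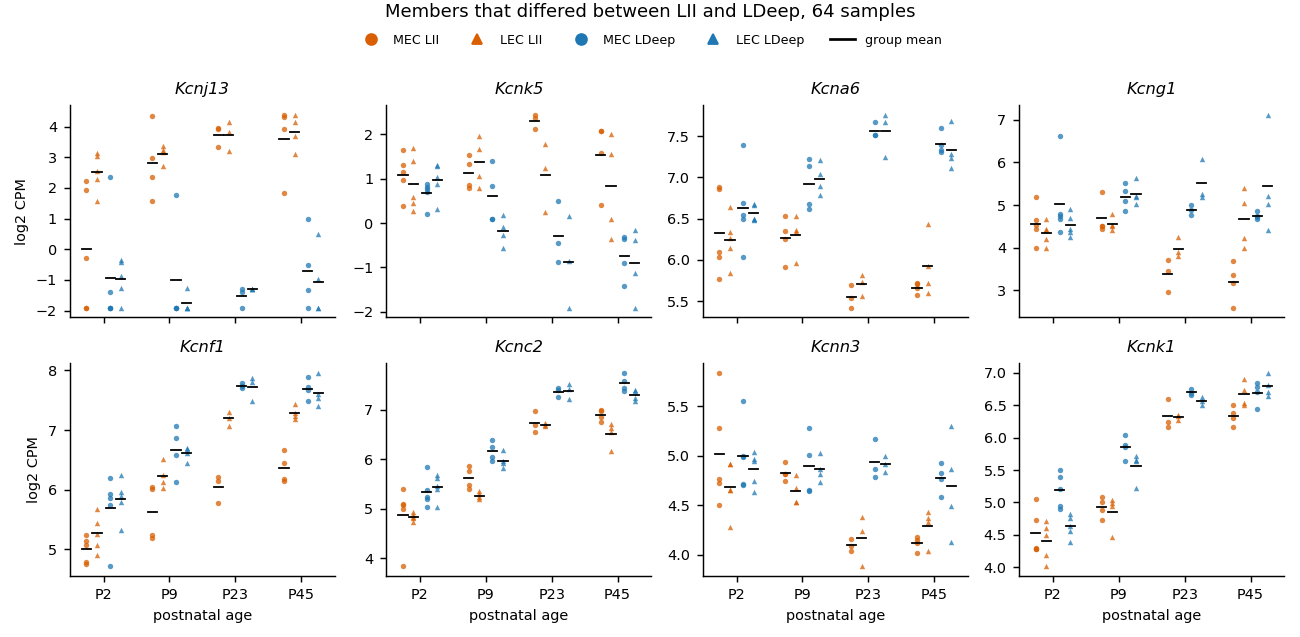
Log2 CPM (vertical axes) by postnatal age (horizontal axis) of the 2 genes with the largest difference toward LII, the 4 with the largest toward LDeep, and Kcnn3 and Kcnk1, whose layer difference changed with age. Points are 64 samples, with colour for the layer, shape for the region, and black bars for group means; at P23/P45 Kcna6 lies between 5.42 and 6.44 in LII and between 7.11 and 7.76 in LDeep.

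Smaller differences toward LII were found for Kcnj2 (LFC 0.47, adjusted p 0.00022), a strong inward rectifier, Kcng3 (0.41, adjusted p 0.022), Kcna5 (0.34, adjusted p 0.012), Kcnj8 (0.30, adjusted p 0.00024), Kcnj4 (0.29, adjusted p 0.013), and Kcnt2 (0.22, adjusted p 0.00072). Calls were lost in the MEC alone for Kcnj4 (LFC 0.10, adjusted p 0.66) and Kcna5 (0.18, adjusted p 0.48). The call of Kcnt2 was lost in the LEC alone (LFC 0.01, adjusted p 0.95). Kcng3 passed in neither region alone (adjusted p 0.14 in the MEC and 0.099 in the LEC). The LFC of Kcng3 was 0.71 without the 8 libraries. Toward LDeep came Kcnk1 (LFC -0.45, adjusted p 2.7e-10), the Girk genes Kcnj6 (-0.45, adjusted p 0.02) and Kcnj9 (-0.25, adjusted p 0.013), Kcnk9 (-0.40, adjusted p 0.0023), and Kcnj12 (-0.33, adjusted p 0.0018). The LFC of Kcnj9 was -0.15 without the 8 libraries (adjusted p 0.048). Kcnj6 passed in neither region alone (adjusted p 0.11 in the MEC and 0.15 in the LEC). Kcnj9 (adjusted p 0.23) and Kcnj12 (0.21) did not pass in the MEC alone, and Kcnk9 (0.16) did not in the LEC alone. The SK genes Kcnn3 (LFC -0.39, adjusted p 4.9e-06), Kcnn2 (-0.38, adjusted p 3.9e-09), and Kcnn1 (-0.33, adjusted p 5.2e-05) and the M-current gene Kcnq3 (-0.30, adjusted p 0.0016) were higher in LDeep too. Of these, Kcnn1 (adjusted p 0.97) and Kcnq3 (0.11) did not pass in the MEC alone. Also higher in LDeep were Kcnk15 (LFC -0.84, adjusted p 0.0011), with under 1 CPM on average, and Kcns2, Kcnh6, and Kcnh7, with LFCs of -0.23 to -0.21. In the MEC alone none of these last 3 passed (LFC -0.11, -0.13, and -0.07), and Kcnh7 did not pass without the 8 libraries. Kcnk15 did not pass in the LEC alone (adjusted p 0.12).

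At single ages the numbers were smaller. Taking P2, P9, P23, and P45 in turn, 5, 7, 6, and 4 genes were higher in LII, against 10.8%, 16.7%, 14.8%, and 14.4% of all genes. In LDeep 5, 9, 8, and 5 were higher, against 8.48%, 16.2%, 11%, and 12%. With limma voom and quantile normalization the splits of LII against LDeep in the same order were 2 against 6, 2 against 16, 4 against 11, and 4 against 13. Without the 8 libraries they were 10 against 6, 11 against 13, 7 against 15, and 7 against 8. With a replicate block in edgeR the P45 split was 6 against 9. These alternative splits have no share of all genes beside them.

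Kcnj13 was higher in LII at each age, with LFCs from P2 to P45 of 2.43 (adjusted p 0.009), 5.42 (adjusted p 1.5e-06), 6.76 (adjusted p 6.1e-07), and 4.92 (adjusted p 2.2e-07). At P2 it came to 4.96 without the 8 libraries. Kcnf1 was higher in LDeep at each age, with LFCs of -0.67 (adjusted p 0.0001), -0.70 (adjusted p 7.9e-05), -1.11 (adjusted p 3.6e-07), and -0.84 (adjusted p 3.8e-06). Kcnc2 was also called higher in LDeep at each age.

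At P2 Kcnj16 (LFC 1.62, adjusted p 0.0043), Kcnk13 (1.03, adjusted p 0.0058), and Kcnt2 (0.30, adjusted p 0.027) were called toward LII, and none of them without the library labelled MEC LII P2 replicate 1 (LFC 0.84, 0.34, and 0.26, adjusted p 0.085, 0.19, and 0.077). Kcnj4 was also higher in LII (LFC 0.58, adjusted p 0.031). Toward LDeep at P2 were Kcng2 (LFC -0.64, adjusted p 0.04), Kcnc2 (-0.51, adjusted p 0.0003), Kcnk1 (-0.43, adjusted p 0.00095), and Kcnk15 (-1.68, adjusted p 0.023), which is named because the count is small and was not called without the 8 libraries. The LFC of Kcnc2 at P2 was -0.30 without the 8 libraries. At P9 the calls toward LII included Kcng4 (LFC 1.81, adjusted p 0.0043), Kcnk5 (1.20, adjusted p 0.0071), Kcng3 (0.89, adjusted p 0.022), Kcnh4 (0.64, adjusted p 0.017), and Kcna5 (0.56, adjusted p 0.042). Those toward LDeep included Kcnk1 (-0.82, adjusted p 2.6e-08), Kcnc4 (-0.74, adjusted p 0.009), Kcnn1 (-0.69, adjusted p 3.3e-05), Kcnv1 (-0.68, adjusted p 0.0064), and Kcna6 (-0.67, adjusted p 0.00018).

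At P23 Kcnk5 (LFC 2.63, adjusted p 7.9e-06), Kcnj16 (1.68, adjusted p 0.0034), Kcnk13 (1.00, adjusted p 0.039), Kcnh4 (0.88, adjusted p 0.0076), and Kcnt2 (0.38, adjusted p 0.019) were higher in LII. Kcna6 (-1.95, adjusted p 6.7e-13), Kcng1 (-1.55, adjusted p 0.00014), Kcnn3 (-0.81, adjusted p 0.00011), Kcnk9 (-0.75, adjusted p 0.021), and Kcnn2 (-0.70, adjusted p 1.5e-06) were higher in LDeep. So were Kcnq3 and, as at the other ages, Kcnf1 and Kcnc2. At P45 Kcnk5 (LFC 2.68, adjusted p 7.9e-07), Kcnj16 (0.99, adjusted p 0.041), and Kcnj2 (0.72, adjusted p 0.0053) were higher in LII, and Kcna6 (-1.57, adjusted p 2.3e-12), Kcng1 (-1.27, adjusted p 0.00021), Kcnc2 (-0.71, adjusted p 2.1e-06), and Kcnn3 (-0.57, adjusted p 0.0014) in LDeep. The LFC of Kcng1 at P45 was -0.84 without the 8 libraries.

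Whether the layer difference itself changed between P2/P9 and P23/P45 was tested as an interaction. It did for 5 of the 62 genes, 2 toward LII and 3 toward LDeep at the older ages, against 4.83% and 3.97% of all genes. Kcna6 had the smallest p of these genes (difference of LFCs -1.27, adjusted p 4.2e-09). Its log2 CPM was 5.77 to 6.89 (median 6.30) in LII and 6.04 to 7.39 (median 6.68) in LDeep at P2/P9, where the layers overlapped. At P23/P45 it was 5.42 to 6.44 (median 5.70) in LII and 7.11 to 7.76 (median 7.45) in LDeep, where they did not overlap. LII therefore went down and LDeep up, and the LFC of Kcna6 between ages over both layers was 0.04 (adjusted p 0.61).

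Kcnk5 moved toward LII (difference 1.93, adjusted p 0.00043), with P2/P9 medians of 1.11 (LII) and 0.73 (LDeep) and P23/P45 medians of 1.67 and -0.66. Kcng1 (difference -0.89, adjusted p 0.026) had medians of 4.51 and 4.88 at the younger and of 3.77 and 4.95 at the older ages, and Kcnn3 (-0.59, adjusted p 0.0034) 4.76 and 4.91 and then 4.16 and 4.86. For Kcnn3 the younger range in LII was 4.28 to 5.84 and the older 3.89 to 4.43. The layer difference of Kcnk1 became smaller (0.35, adjusted p 0.024), from medians of 4.72 in LII and 5.31 in LDeep to 6.37 and 6.70. Of the genes with this interaction only Kcna6 passed in each region alone. Kcnk5 and Kcnn3 passed in the MEC but not in the LEC (adjusted p 0.3 and 0.16). Kcng1 (adjusted p 0.17 in the MEC and 0.23 in the LEC) and Kcnk1 (0.14 and 0.53) passed in neither. Kcnn2 was called in the LEC alone (-0.47, adjusted p 0.035). In the same interaction 4 of 5 oligodendrocyte markers moved toward LDeep, with median sums at P2/P9 of 48.4 CPM (LII) and 72.2 CPM (LDeep) and at P23/P45 of 2352 and 6368 CPM. Their part in the changes of the potassium channel genes was not tested.

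Between regions, 13 of the 62 genes were higher in the MEC and 10 in the LEC, against 8.87% and 6.53% of all genes. The median LFC (MEC over LEC) was 0.07 for the 62 genes and 0.01 for all genes. Without the 8 libraries 19 were higher in the MEC and 15 in the LEC, with no share of all genes taken. Of 6 Kv1 genes 3 were higher in the MEC and 2 in the LEC, and of 3 SK genes 2 were higher in the MEC. No Kv3 or Slo2 gene passed. Of 5 oligodendrocyte markers 2 were higher in the MEC (median of the sum 108.6 CPM, 34.1 to 15220, against 130.6 CPM, 41.6 to 6534, in the LEC), and no meningeal, astrocyte, or pericyte marker passed. Higher in the MEC were also 2 of 5 oligodendrocyte precursor markers and 1 of 4 endothelial markers, and lower were 1 of 5 microglia markers and 1 of 3 layer II markers. Of 6 deep layer markers 2 were higher and 2 lower, and of 5 neuron markers 1 was higher and 1 lower. Their part in the region differences was not tested.

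The SK gene Kcnn1, on chromosome 16 from 20336817 to 20347956 on the plus strand, differed most toward the MEC. Its log2 CPM was 3.77 to 5.90 (median 4.78) in the MEC and 3.35 to 5.10 (median 4.12) in the LEC (LFC 0.72, SE 0.07, adjusted p 3.7e-12). Kcnn2, a gene of the same subfamily, had 3.40 to 5.37 (median 4.48) and 2.97 to 5.03 (median 3.88), with an LFC of 0.50 (SE 0.05, adjusted p 1.1e-11). SK channels open with intracellular calcium and contribute to the afterhyperpolarization. The regions overlapped for both genes over the 4 ages and 2 layers.

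Kcns3 had -0.59 to 5.66 (median 3.59) in the MEC and 1.32 to 4.73 (median 3.08) in the LEC (LFC 0.70, SE 0.10, adjusted p 9.7e-07). Kcng3, another modifier gene, had 1.17 to 4.44 (median 3.27) and 1.05 to 4.63 (median 2.55) (LFC 0.55, SE 0.15, adjusted p 0.0084). For the Kir gene Kcnj12 the values were 1.90 to 5.05 (median 3.50) and 1.62 to 5.17 (median 3.06) (LFC 0.39, SE 0.09, adjusted p 0.001). Kcna1 had -0.19 to 6.55 (median 4.14) in the MEC and 0.58 to 6.0 (median 3.56) in the LEC (LFC 0.52, SE 0.16, adjusted p 0.017). This call was lost without the library labelled MEC LII P2 replicate 1, where the LFC was 0.29 (adjusted p 0.058), and also without the samples numbered P2 replicate 1 (adjusted p 0.073), P23 replicate 1 (adjusted p 0.057), or P23 replicate 2 (adjusted p 0.052), and without the 8 libraries.

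Toward the LEC, the Kv1 gene Kcna5 differed most. It lies on chromosome 4 from 159077195 to 159079003 on the minus strand, and its log2 CPM was -0.77 to 2.47 (median 1.42) in the MEC and -0.17 to 3.26 (median 2.15) in the LEC (LFC -0.77, SE 0.12, adjusted p 1.1e-06). Kcnk13 had 0.29 to 4.95 (median 1.60) and 1.56 to 3.41 (median 2.10), with an LFC of -0.56 (SE 0.16, adjusted p 0.01). The highest MEC value of Kcnk13 was that of the library labelled MEC LII P2 replicate 1. Kcnj4 had 1.05 to 7.39 (median 5.33) in the MEC and 3.64 to 7.87 (median 5.82) in the LEC (LFC -0.52, SE 0.10, adjusted p 0.00011).

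The modifier genes Kcnv1 and Kcnf1 were also higher in the LEC. Kcnv1 had 1.83 to 6.61 (median 5.29) in the MEC and 3.83 to 6.95 (median 6.03) in the LEC (LFC -0.51, SE 0.10, adjusted p 0.00012). Kcnf1 had 4.72 to 7.89 (median 6.15) and 4.90 to 7.96 (median 6.65) (LFC -0.36, SE 0.07, adjusted p 0.00014). From P2 to P45, Kcnf1 group means in LII were 5.00, 5.62, 6.05, and 6.36 (MEC) and 5.27, 6.23, 7.20, and 7.29 (LEC). In LDeep they were 5.69, 6.66, 7.74, and 7.69 (MEC) and 5.84, 6.61, 7.72, and 7.63 (LEC). The regions thus lay apart in LII and close together in LDeep. Kcnh4 had 2.09 to 4.97 (median 3.77) and 1.75 to 5.03 (median 3.96), with an LFC of -0.34 (SE 0.11, adjusted p 0.025). In 5 of the alternatives tried the adjusted p of Kcnh4 was above the threshold (0.052 to 0.084). Regions overlapped for all 6 genes.

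**Figure D5:**
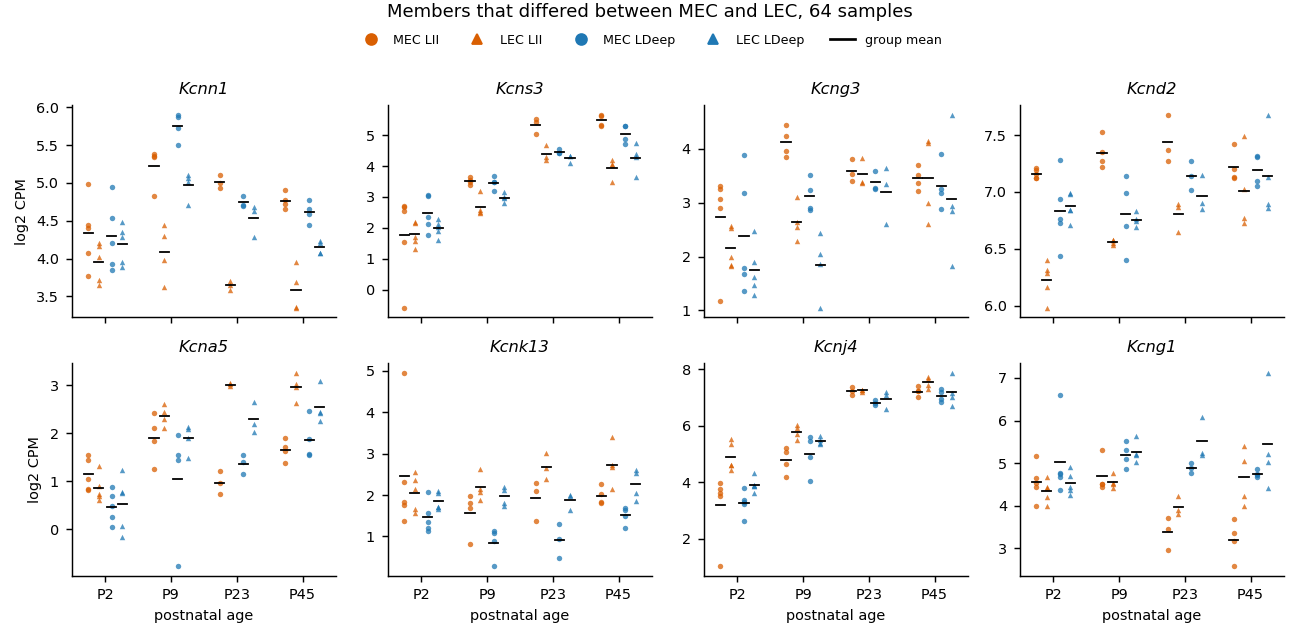
Log2 CPM (vertical axes) by postnatal age (horizontal axis) of the 3 genes with the largest difference toward the MEC and toward the LEC, and of Kcnd2 and Kcng1, whose difference depended on layer or age. Points are 64 samples, with colour for the layer, shape for the region, and black bars for group means; in LII the median of Kcnn1 is 4.87 for MEC samples and 3.71 for LEC samples.

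The remaining genes higher in the MEC were Kcna4 (LFC 0.37, adjusted p 0.00016) and Kcnd2 (0.35, adjusted p 1.1e-06), both of A-type channels, Kcnh7 (0.36, adjusted p 3.5e-05), the ATP-sensitive Kcnj11 (0.31, adjusted p 1.7e-05), Kcnj9 (0.30, adjusted p 0.011), Kcna2 (0.28, adjusted p 0.016), and Kcns2 (0.26, adjusted p 0.0065). Those higher in the LEC were Kcna3 (LFC -0.33, adjusted p 0.017), Kcnh8 (-0.32, adjusted p 0.041), Kcnh1 (-0.31, adjusted p 0.0099), and Kcnd3 (-0.22, adjusted p 0.047).

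The layer difference depended on the region for 4 genes, 3 toward LII in the MEC and 1 toward LDeep in the MEC, against 0.942% and 0.303% of all genes. Kcnn1 (difference of LFCs 0.64, adjusted p 0.0044) had medians of 4.87 in LII and 4.70 in LDeep of the MEC, and of 3.71 and 4.32 in the LEC. Kcnd2 (0.57, adjusted p 0.00087) had 7.12 to 7.68 (median 7.22) in LII and 6.40 to 7.32 (median 7.03) in LDeep of the MEC, whereas in the LEC LII (5.98 to 7.49, median 6.58) lay below LDeep (6.69 to 7.68, median 6.85) in the median. The sodium-activated Kcnt2 (0.46, adjusted p 0.021) had medians of 5.41 and 5.11 in the MEC and of 5.37 and 5.42 in the LEC. Kcnf1 (-0.74, adjusted p 0.0016) was higher in LDeep in both regions, with layer LFCs of -1.20 (MEC) and -0.45 (LEC). These 4 genes were also called without the 8 libraries. In the same comparison 2 of 3 layer II markers moved toward LII in the MEC and 1 of 6 deep layer markers toward LDeep, and their part was not tested.

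The age difference depended on the region for 6 genes, 3 with a larger rise in the MEC and 3 with a larger rise in the LEC, against 2.08% and 2.30% of all genes. With a replicate block in edgeR these were 5 and 5. Kcnj4 (difference of LFCs 0.71, adjusted p 0.03) had medians of 3.89 at P2/P9 and 7.13 at P23/P45 in the MEC and of 5.35 and 7.24 in the LEC. Kcns2 (0.62, adjusted p 0.0047) went from 3.33 to 4.34 in the MEC and from 3.56 to 3.82 in the LEC, and Kcnt2 (0.37, adjusted p 0.045) from 5.00 to 5.71 and from 5.20 to 5.61. Kcng1 (-1.25, adjusted p 0.0024) went from 4.70 to 4.20 in the MEC and from 4.53 to 5.04 in the LEC, with an LFC between ages of -0.90 in the MEC (adjusted p 6.5e-05) and 0.35 in the LEC (adjusted p 0.093). Kcna5 (-1.11, adjusted p 0.0016) went from 1.15 to 1.54 in the MEC and from 1.27 to 2.81 in the LEC. Kcng3 (-1.12, adjusted p 0.024) went from 3.20 to 3.38 and from 2.01 to 3.35.

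Without the 8 libraries the calls of Kcng3 (difference -0.67, adjusted p 0.061) and Kcnt2 (0.34, adjusted p 0.075) in this comparison were lost, and the difference of Kcng1 was -0.79 (adjusted p 0.0018). In the same comparison 4 of 5 oligodendrocyte markers rose more in the MEC, with sums of 55.3 CPM at P2/P9 and 5366 CPM at P23/P45 in the MEC and of 64.3 and 1863 CPM in the LEC (medians), and their part in these differences was not tested.

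Genes for partners of the channels were examined as a list of 24 symbols, 22 of which were counted and 18 tested. It holds the calcium-activated Kcnma1 with its beta subunits, the beta subunits of Kv1 (Kcnab), the Kv4 partners (Kcnip, Dpp6, and Dpp10), the Kcne subunits, and others. With age 12 of the 18 rose and 5 fell, against 41.0% and 40.6% of all genes. Kcnab2 (LFC 2.83, adjusted p 9.4e-42), Kcnip3 (2.44, adjusted p 1.9e-40), Kcnab3 (2.17, adjusted p 2.2e-29), and Kcnip4 (1.58, adjusted p 4.5e-27) rose most. Kcne5 (LFC -2.33, adjusted p 1.6e-24), Kcnmb2 (-1.62, adjusted p 6.9e-22), and Kcne2 (-0.80, adjusted p 1.3e-08) fell most. Kcnma1 itself rose (LFC 0.95, adjusted p 1.3e-16). From P2 to P9 9 rose and 3 fell (31.6% and 31.8% of all genes), from P9 to P23 11 rose and 3 fell (32.5% and 32.1%), and from P23 to P45 Abcc9 alone passed (LFC -0.69, adjusted p 1.1e-06).

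Between layers 5 of the 18 were higher in LII and 4 in LDeep, against 23.5% and 30.5% of all genes. Kcnmb4, a beta subunit of the Kcnma1 channel, had the largest difference (LFC -0.87, adjusted p 1.5e-15) and was higher in LDeep at P2 (LFC -0.51), P9 (-0.94), P23 (-1.0), and P45 (-1.01), with adjusted p of 0.0022, 3.4e-07, 1.7e-06, and 5.7e-08. Kcne5 (LFC 0.63, adjusted p 1.5e-05) and Kcnab3 (0.43, adjusted p 4.1e-05) were higher in LII. Between regions 6 were higher in the MEC (8.87% of all genes), among them Kcnab3 (LFC 0.52, adjusted p 1.1e-05) and Kcnab1 (0.39, adjusted p 3.8e-06), and Kcne5 was higher in the LEC (LFC -0.34, adjusted p 0.046), against 6.53% of all genes.

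The 10 genes that did not pass the filter on low counts were Kcna7, Kcna10, Kcnj1, Kcnj15, Kcnk6, Kcnk16, Kcnk18, Kcnn4, Kcnq1, and Kcnv2. Kcna10 and Kcnk18 had no count in any of the 64 samples. Kcnk16, a K2P gene, had 145 of its 284 counts in the library labelled MEC LII P2 replicate 1, which is 14.5 CPM, and at most 12 counts (1.14 CPM) in any other sample. The other 7 had at most 13 counts in any sample. At these depths 1 count was 0.0874 to 0.257 CPM. Kcnj15 passed the filter when counts were summed over samples that share a replicate number, and was then called between ages.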

How the data were processed

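Total RNA was extracted from LII and LDeep dissected from rat MEC and LEC slices, depleted of ribosomal RNA, and sequenced as stranded paired-end libraries. According to the submitters' processing notes and the study's methods, reads were trimmed (Trimmomatic 0.33), aligned to Rn6 (STAR 2.4.0), and counted per RefSeq gene (featureCounts of Subread 1.4.6-p1). The deposited values are raw counts per gene, without normalization. For its own tests the study transformed its counts with limma voom and applied TMM and quantile normalization. The members and gene lists were chosen with earlier results of these data known.

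Counts were fitted for 64 samples and 16 group means with edgeR 4.0.16 (TMM normalization, filterByExpr, quasi-likelihood test) in R 4.3.3. Contrasts weighted groups equally, and p-values were adjusted by Benjamini-Hochberg over 12521 genes, with a threshold of 0.05. Log2 CPM used a prior count of 2, and RPKM used exon lengths from the deposited files. Alternatives used DESeq2 1.42.0 and limma 3.58.1, other normalization, no filter, each region alone, a fold change limit, a replicate block, counts summed by replicate number, and samples left out. The share of all genes past the threshold was taken in the main fit only. Scripts were tested on simulated data. Total counts were 3894334 to 11439143 per sample, which sets the counting error of low genes. No sample was left out of the main results, and no pair of samples of a group held identical values.

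Genes with per-sample values were the 6 per direction with the largest LFC for age, layer, and region among those past the threshold with a mean of at least 1 CPM. Up to 15 per direction were named with LFC only, and up to 6 in other comparisons. The limits for the 8 libraries that stood apart were set after seeing the data. Results of some single genes are not reported here.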

Additional observations from a re-analysis of the deposited data

Results flagged for a closer look

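In 6 of the 72 groups of 4 or 5 samples examined for 6 genes, 1 sample lay far from the others by Dixon's criterion, and for continuous values chance alone gives about 1 in 20. That rate does not hold where every other sample of a group had no count, as in 4 of the 6. Kcng4 had a log2 CPM of -1.39 in MEC LDeep P2 replicate 3 and of -1.19 in LEC LII P2 replicate 3, where the other samples of both groups had no count (-1.91). Kcnj13 had 2.36 in MEC LDeep P2 replicate 1 (others -1.91 to -1.39), 1.76 in MEC LDeep P9 replicate 3 (others -1.91), and -1.28 in LEC LDeep P9 replicate 4 (others -1.91). Kcnn1 had 4.83 in MEC LII P9 replicate 1 (others 5.34 to 5.38).

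Further results were marked because an effect differed between groups by an interaction test. The layer difference changed with age for Kcna6 (difference of LFCs -1.27), Kcnk5 (1.93), Kcng1 (-0.89), Kcnn3 (-0.59), and Kcnk1 (0.35). It differed between regions for Kcnf1 (-0.74), Kcnn1 (0.64), Kcnd2 (0.57), and Kcnt2 (0.46). The age difference differed between regions for Kcng1 (-1.25), Kcng3 (-1.12), Kcna5 (-1.11), Kcnj4 (0.71), Kcns2 (0.62), and Kcnt2 (0.37). The causes of these differences were not tested.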

How the results depend on the processing

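Of 912 alternative values for the 36 fold changes of genes given with values per sample, 894 kept their direction and passed the threshold, 18 kept their direction only, and none reversed. Numbers of potassium channel genes past the threshold moved by over 1.5 times as follows, and the cause was not tested. From P23 to P45, 2 genes became 4 with DESeq2, 1 with limma voom with or without a replicate block, 0 with counts summed by replicate number, and 5 without the 8 libraries. The layer and region counts of 33 and 23 became 10 and 9 with an absolute LFC above 0.5. Without the 8 libraries the layer counts at P2 and P23 went from 10 to 16 and from 14 to 22. At P45 the count of 9 became 17 with limma voom and quantile normalization and 15 without the 8 libraries. Layer by age went from 5 to 3 in the MEC and 2 in the LEC alone, and age by region from 6 to 10 without the 8 libraries.

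Leaving out 1 replicate number of an age gave 49 to 51 genes for age, 40 to 44 for P2 to P9, 35 to 40 for P9 to P23, 1 to 4 for P23 to P45, 29 to 37 for layer, 18 to 27 for region, 3 to 6 for layer by age, 3 to 5 for layer by region, and 3 to 9 for age by region. For layer at P2, P9, P23, and P45 it gave 6 to 11, 10 to 18, 9 to 17, and 8 to 15. The lowest or highest counts came without P23 replicate 3 for P23 to P45 (1) and without P23 replicate 2 (4), without P2 replicate 5 for layer at P2 (6) and P45 (15), and without P9 replicate 1 or 2 for layer at P9 (10).

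Replicate numbers are shared between groups. Deviations from group means correlated with a median of 0.134 to 0.15 for samples with the same number and -0.0573 to -0.0445 for others. Correlations over 0.1 were found in 17, 18, and 20 of 32 same-number pairs, against 19, 22, and 18 of 100 other pairs. Samples that share a number were therefore more alike than others, which the main tests ignore, as they treat the samples as independent. The labels do not say whether a number marks 1 animal. With a replicate block, the count for layer at P45 was 16 (limma voom) or 15 (edgeR), and that for age by region 11 or 10. Genes with few counts limit the precision, as for Kcng4 at P2 and Kcnj13 in LDeep.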
